A study of Mus musculus with 4 samples.

Results

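The genes described here are 10 components of the tight junction in mouse skin, namely 8 claudins (Cldn1, Cldn3, Cldn4, Cldn5, Cldn7, Cldn8, Cldn12 and Cldn23), occludin (Ocln) and the scaffold gene Tjp1, which encodes ZO-1. They were taken by name from 18193 genes on a 3′ expression array, each through the annotated probe set with the highest mean on the log scale, and all 10 were measured. The samples were skin treated with MC903 (calcipotriol, a vitamin D analogue) on 2 arrays and skin treated with vehicle, ethanol, on 2 arrays, titled Control in the labels. All samples came from female wild type BALB/c mice. Mice of both groups had been sensitised on the ear skin with ovalbumin, an egg-white protein, given together with MC903, and had then been given ovalbumin by mouth. Vehicle skin was therefore skin of mice that had met MC903 before, at the sensitised ear. The later MC903 or ethanol was applied after that oral challenge, a further oral challenge followed, and the treated skin was then collected. The body site of this later treatment, the age of the mice and whether arrays held single or pooled animals are not given. The p-values below set each difference against the spread between arrays of the same group, moderated by that of all genes. That spread may therefore be purely technical.

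Tight junctions seal the space between neighbouring epithelial or endothelial cells. Claudins cross the membrane and form the strands, occludin is a further membrane protein of the strands, and ZO-1 ties both to the actin skeleton. In the epidermis the working seal lies in the granular layer, under the cornified layer, and mice lacking claudin-1 lose water through the skin and die soon after birth. In human atopic dermatitis, which MC903 is used to mimic in mice, lower CLDN1 and CLDN23 have been described. The comparison asks which tight junction transcripts differed between MC903-treated and vehicle-treated skin.

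Signals are linear array intensities scaled to a trimmed mean of 500 on each array, and array medians were 90.2 and 99.6 in MC903 skin and 109 and 99.7 in vehicle skin. Control probe sets for a bacterial transcript (TrpnX), a guide to background, read 1.55 to 24. Signals of different genes cannot be ranked against each other, since each probe set has its own response. Differences are MC903 minus vehicle of log2(signal + 16), a scale on which dim genes appear less changed than they are, and are given ± the SE of limma's moderated fit (n = 2 arrays per group). In these whole-skin samples, fewer cells of a type and less RNA per cell cannot be told apart. The labelled tissue carried its defining transcripts, with Krt5 at 29772 and 29872 in MC903 skin and 27745 and 27480 in vehicle skin. Krt10, the keratin of the layers above, stood at 44479 and 45067 in MC903 skin and 42347 and 39062 in vehicle skin.

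Differences of the 10 genes were no larger than is typical of the array. Cldn8 was lower in both MC903 arrays, at 0.666 of its vehicle level on the fitted scale, and Ocln and Cldn12 were lower by less, while Cldn4 was higher. The remaining 6 genes had overlapping groups. None of the 10 passed an adjusted p of 0.05 in limma, where 0% of all genes did, and 1 (Cldn8) had an unadjusted p below 0.05, against 15.2% of all genes, or 8.39% counting only lower ones. In a limma fit over all probe sets, dimmer probe sets of Cldn1 and Cldn3 had unadjusted p of 0.0038 and 0.0137. Neither passed after adjustment (0.249 and 0.295). With a prior variance that depended on signal strength, 0 of the 10 passed, against 0.923% of all genes. No member differed 2-fold, against 5.69% of all genes, and the 95% intervals of 8 members lay inside a 2-fold difference either way, those of Cldn7 and Cldn23 being wider. The median size of a difference, whatever its sign, was 0.24 in the 10 genes and 0.26 over all genes.

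**Figure D1:**
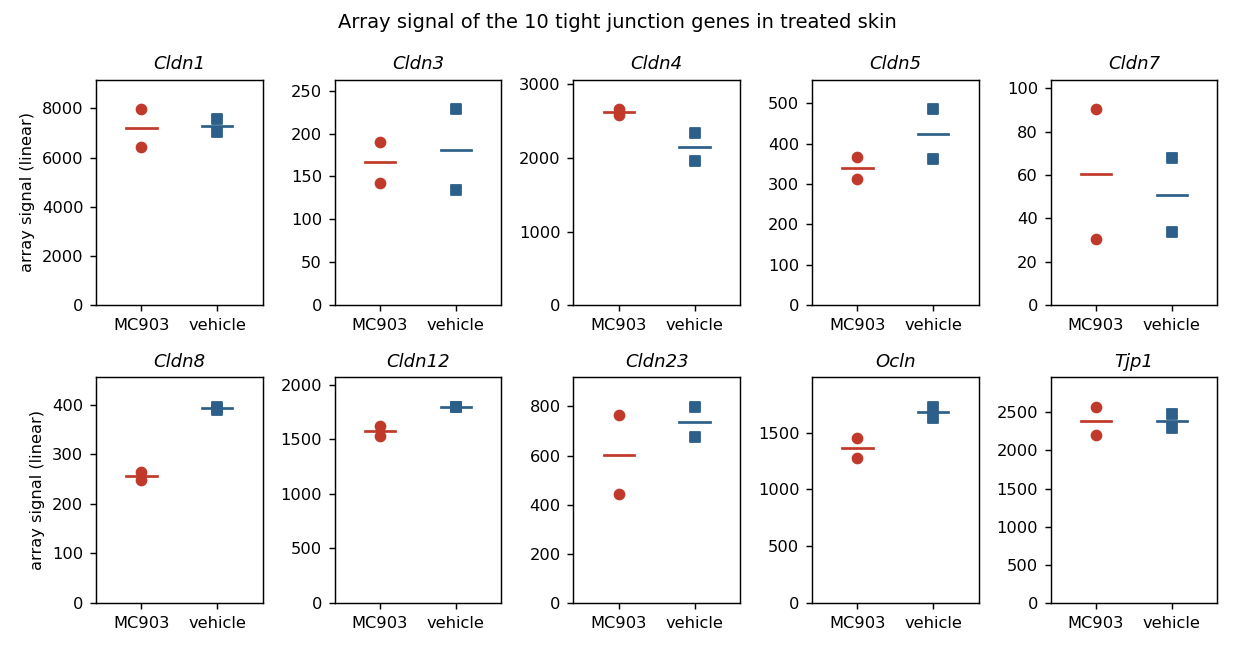
Linear array signal of each gene (vertical axes, each from 0) in MC903 skin (red circles, left) and vehicle skin (blue squares, right), 1 point per array and a bar at each group mean. Cldn8, Cldn12 and Ocln lie lower in both MC903 arrays, Cldn4 lies higher, and the groups of the remaining 6 genes overlap.

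Cldn1, the principal sealing claudin of the epidermis, had signals of 6442 and 7966 in MC903 skin and 7031 and 7553 in vehicle skin. The vehicle values lay between the MC903 values, and the difference was -0.02 ± 0.19 (limma, adjusted p = 0.963, 95% interval -0.52 to 0.48). Cldn1 has 3 further probe sets, and each had a difference above 0. The brightest of these read 4130 and 4163 in MC903 skin and 3179 and 3488 in vehicle skin, without overlap, a difference of 0.32 ± 0.17 (adjusted p = 0.49 over all probe sets). A dim probe set, with the name suffix used for possible cross-hybridisation, read 87.5 and 72.04 in MC903 skin and 27.5 and 14 in vehicle skin. Its difference of 1.40 ± 0.25 (adjusted p = 0.249) was the largest of the 18 probe sets, with 1 vehicle value inside the TrpnX range. The last of the 3, annotated to the same source sequence as that dim one, read 24.7 and 16.5 in MC903 skin and 15.5 and 16.8 in vehicle skin, at about the TrpnX level. The direction differed between the probe sets of Cldn1. Its mean over all 4 was 0.47 (adjusted p = 0.314), a value that includes both dim probe sets and the 1.40 of the one with the suffix.

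Cldn4, a claudin of the granular layer and of many glandular epithelia, had signals of 2661 and 2588 in MC903 skin and 1962 and 2331 in vehicle skin. It was the only member higher in both MC903 arrays, whereas 21.6% of all genes were. Its difference was 0.29 ± 0.17 (limma, adjusted p = 0.482, 95% interval -0.17 to 0.76), and 0.17 without vehicle replicate 1. Cldn3, which like Cldn4 binds the enterotoxin of Clostridium perfringens, had signals of 190 and 143 in MC903 skin and 134 and 228 in vehicle skin. The groups of Cldn3 overlapped, and its difference was -0.08 ± 0.31 (adjusted p = 0.923). All 3 further probe sets of Cldn3 had lower means in MC903 skin, with differences of -0.35 and -0.42 for those with the same suffix and -0.90 for the other. The last read 44.5 and 50.5 in MC903 skin and 85.01 and 123 in vehicle skin, without overlap (-0.90 ± 0.23, adjusted p = 0.295 over all probe sets).

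Cldn8 had the largest difference of the 10 genes. It is a claudin of the kidney's collecting duct, where in mouse cells it brings claudin-4 to the junction. Its signals were 248 and 265 in MC903 skin and 396 and 390 in vehicle skin. Both groups were narrow and far apart beside their own spread, and the difference was -0.59 ± 0.15 (limma, 95% interval -0.998 to -0.17, unadjusted p = 0.016, adjusted p = 0.246). It was lower in both MC903 arrays together with Cldn12 and Ocln, 3 of 10 members, whereas 28.2% of all genes were. Over the 14 alternatives its difference ran from -0.63 to -0.50 and its adjusted p from 0.0933 to 0.691. The genes with the most similar profile over the 4 arrays, each taken relative to its own vehicle mean, were Glmn, Slc37a1 and Bbs12, at root mean square distances of 0.00936, 0.00944 and 0.0185 on the log2 scale. With 4 arrays such likeness is common, and 336 genes lay within 0.1 of Cldn8.

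Ocln read 1279 and 1454 in MC903 skin and 1631 and 1727 in vehicle skin. The groups did not overlap, and the difference was -0.30 ± 0.16 (limma, adjusted p = 0.465, 95% interval -0.74 to 0.15). A further probe set of Ocln read 314 and 518 in MC903 skin and 695 and 574 in vehicle skin, again without overlap and with a larger difference of -0.63 ± 0.30 (adjusted p = 0.449 over all probe sets). Cldn12 is a claudin that, with Cldn2, is induced by vitamin D in mouse intestine. It read 1528 and 1622 in MC903 skin and 1796 and 1796 in vehicle skin. Cldn12 was lower in both MC903 arrays by a small amount, -0.19 ± 0.15 (adjusted p = 0.599, 95% interval -0.60 to 0.22). Its further probe set, at 598 and 827 in MC903 skin and 888 and 865 in vehicle skin, had a difference of -0.31 ± 0.22, also without overlap. Cldn2 itself read 85.7 and 119 in MC903 skin and 113 and 127 in vehicle skin, with overlap (-0.21 ± 0.21).

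Because MC903 acts through the vitamin D receptor, the start regions of the members whose groups did not overlap are shown. They are RefSeq windows of GRCm38.p6, each 250 bases before to 50 after the outermost listed start of the gene, all on the minus strand and read 5′ to 3′. The windows are chr5:134946885-134947184 for Cldn4, chr13:100552669-100552968 for Ocln and chr5:5514927-5515226 for Cldn12. Capitals mark, on either strand, the vitamin D receptor core hexamers AGGTCA and GGTTCA, the E-box CAGGTG bound by Snail-type repressors of junction genes, and the GC box GGGCGG. No marked match overlaps another.
Cldn4: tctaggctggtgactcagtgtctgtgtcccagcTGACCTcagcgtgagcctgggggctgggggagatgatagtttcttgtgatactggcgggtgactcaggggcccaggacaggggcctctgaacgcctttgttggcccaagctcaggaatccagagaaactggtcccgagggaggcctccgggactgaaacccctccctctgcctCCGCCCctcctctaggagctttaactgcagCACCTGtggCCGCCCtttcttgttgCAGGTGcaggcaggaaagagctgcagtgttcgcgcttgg
Ocln: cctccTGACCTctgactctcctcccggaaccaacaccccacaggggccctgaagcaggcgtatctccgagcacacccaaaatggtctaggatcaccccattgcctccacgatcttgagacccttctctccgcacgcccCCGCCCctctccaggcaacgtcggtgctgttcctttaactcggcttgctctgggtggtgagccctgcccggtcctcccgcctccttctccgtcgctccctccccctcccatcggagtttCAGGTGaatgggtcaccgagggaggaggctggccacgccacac
Cldn12: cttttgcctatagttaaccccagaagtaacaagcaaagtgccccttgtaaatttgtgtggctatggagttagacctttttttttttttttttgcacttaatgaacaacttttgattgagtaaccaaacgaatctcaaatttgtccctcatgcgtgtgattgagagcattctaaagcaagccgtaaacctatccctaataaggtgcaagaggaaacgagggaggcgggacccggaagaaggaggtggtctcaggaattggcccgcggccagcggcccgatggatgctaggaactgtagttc

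The table held windows for 8 of the 10 genes (Cldn8 and Cldn23 had none). Each of the 8 was searched at its outermost start alone, whereas the shares over all windows can count several starts of a gene. The hexamer AGGTCA was found in 3 of the 8 windows (Cldn4, Cldn7 and Ocln), against 16.3% of 32851 windows in the table, and GGTTCA in 1 (Cldn1), against 10.4%. A full direct repeat of either hexamer, that is 2 copies of it parted by NNN (any 3 bases), was in 0 of the 8, against 0.00609% of all windows for each. CAGGTG occurred in 3 windows (Cldn3, Cldn4 and Ocln), against 20.2%, and GGGCGG in 6, against 35.7%. The AP-1 motif TGANTCA occurred only in the Cldn4 window among the 8, at 2 places, against 7.81% of all windows, and the Grainyhead motif AACCGGTT in 0 of the 8, against 0.146%. These matches are letters in a window and no measure of binding. Cldn4, the member with the higher signal, and Ocln, with a lower one, each held the first hexamer, the E-box and the GC box.

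Among the other members, Tjp1 stood at 2206 and 2572 in MC903 skin and 2478 and 2292 in vehicle skin. Its groups overlapped around the same mean, and its difference was 0.00 in size, with a 95% interval of -0.46 to 0.46 (limma, adjusted p = 0.999). Cldn23, a claudin of the differentiated epidermal layers, read 442 and 764 in MC903 skin and 798 and 675 in vehicle skin. The MC903 arrays were far apart, 1 below both vehicle arrays and 1 between them, so that its difference of -0.33 ± 0.31 (adjusted p = 0.655) became 0.057 without MC903 replicate 1. Cldn7, a claudin of simple epithelia, was the dimmest member, at 30.8 and 90.4 in MC903 skin and 34 and 67.9 in vehicle skin. Its interval of -1.22 to 1.47 was the widest of the 10 (difference 0.12 ± 0.50, adjusted p = 0.928), and without MC903 replicate 2 the difference was -0.47.

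**Figure D2:**
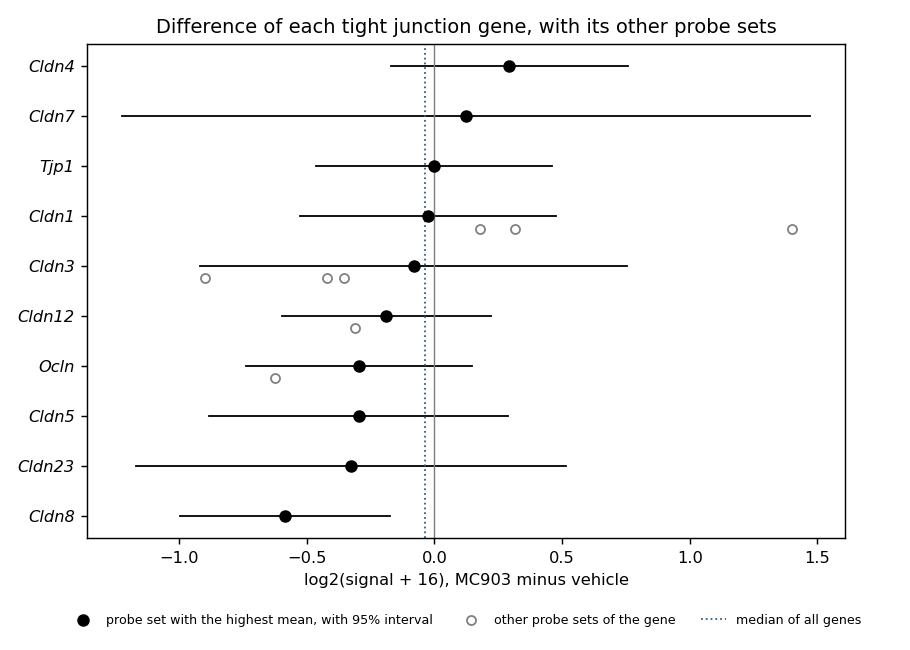
Difference in log2(signal + 16), MC903 minus vehicle, for each gene (filled points, with limma's 95% interval) and for its other probe sets (open points), with a dotted line at the median of all genes (-0.04). Only the interval of Cldn8 (-0.998 to -0.17) leaves out 0, the 3 open points of Cldn1 lie to the right of its filled point, and those of Cldn3, Cldn12 and Ocln lie to the left.

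Taken over the 10 genes, the median difference was -0.14, against -0.04 over all genes. Differences were below 0 in 8 members (Tjp1 among them by less than 0.01), against 54.3% of all genes. With arrays centred on their medians, Cldn1 and Tjp1 lay above 0, at 0.056 and 0.080. Relative to the vehicle mean, 8 members lay lower in MC903 replicate 1 and 5 in MC903 replicate 2, with medians of -0.21 and -0.04. The gap between the MC903 arrays exceeded that between the vehicle arrays in 7 members. Shares over all genes were not computed for these counts, and MC903 replicate 1 had the lowest array median (90.2). With 1 array left out, groups overlap less often over all genes too. Without MC903 replicate 2, 7 members were lower without overlap, against 44.2% of all genes, and without vehicle replicate 2 the number was 5, against 40.3%. It was 4 without MC903 replicate 1 and 4 without vehicle replicate 1, against 40.7% and 38.9% of all genes. Without MC903 replicate 1, 4 members were higher without overlap, against 35.8% of all genes, and without vehicle replicate 2 the number was 2, against 32.5%. It was 1 in each of the other omissions, against 34.7% of all genes without MC903 replicate 2 and 32.3% without vehicle replicate 1.

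Cldn5, the main claudin of blood vessel endothelium and of the blood-brain barrier, read 367 and 313 in MC903 skin and 486 and 362 in vehicle skin. The higher MC903 value lay just above the lower vehicle value, and the difference was -0.30 ± 0.22 (limma, adjusted p = 0.561, 95% interval -0.88 to 0.29). It depended on the array left out, being -0.093 if vehicle replicate 1 was omitted, -0.50 if vehicle replicate 2 was, and -0.19 if MC903 replicate 2 was. Of 21 endothelial markers, 19 had a difference above that of Cldn5 and 2 (Erg and Flt4) one below it. The marker list had a median of 0.11, with 5 higher and 1 lower without overlap (21.6% and 28.2% of all genes), and its summed signals were 12899 and 11025 in MC903 skin and 11501 and 9154 in vehicle skin. Cdh5, the cadherin of endothelial adherens junctions, stood at 224 and 269 in MC903 skin and 150 and 176 in vehicle skin (0.55 ± 0.19, adjusted p = 0.303). Plvap, a protein of fenestrated and activated endothelium, stood at 2142 and 1741 in MC903 skin and 1190 and 927 in vehicle skin (0.87 ± 0.22, adjusted p = 0.238). Cdh5 and Plvap are among the markers with the largest differences, which is how they were chosen. Of the 21 markers, 13 had a difference above 0 and 8 one below 0, as Cldn5 had, among them Kdr (-0.14, lower without overlap). The difference between Cldn5 and these markers was not tested.

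**Figure D3:**
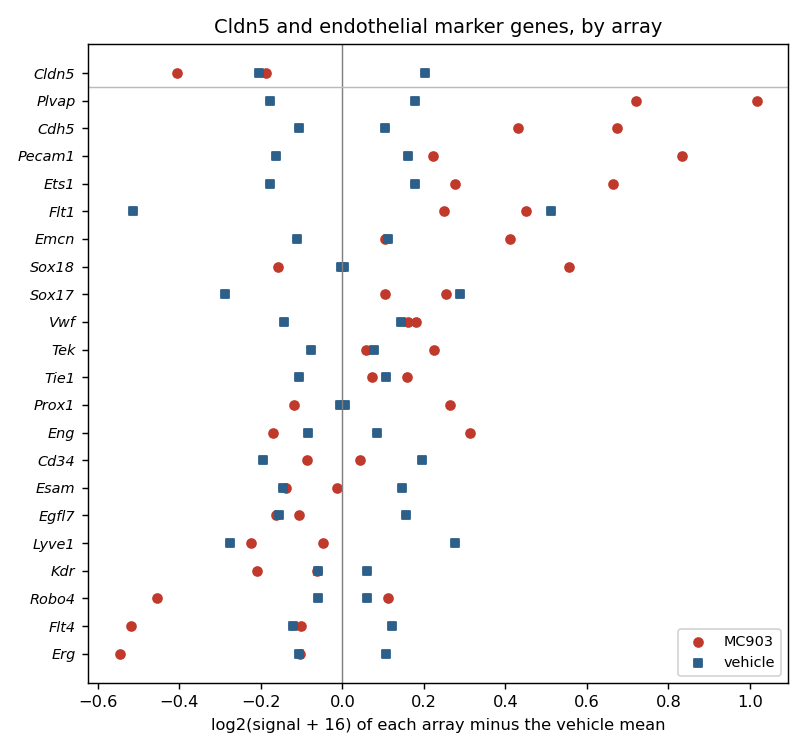
Log2(signal + 16) of each array minus the vehicle mean of the gene, for Cldn5 (top row) and 21 endothelial markers, in MC903 skin (red circles) and vehicle skin (blue squares). Both MC903 points of Cldn5 lie left of 0, as do those of some markers, among them Kdr, Erg and Flt4. Those of Plvap, Cdh5, Pecam1 and Ets1, chosen for large differences, lie to the right of both of their vehicle points. Of the 21 markers, 13 had a difference above 0 and 8 one below 0.

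The rest of the tight junction was covered by 3 lists, in which limma called 0 genes over all genes tested, as for every list below. Of 15 other claudins measured among 21 listed, 6 were lower and 3 higher without overlap, with a median difference of -0.36 and a range of -1.19 to 0.57. Only 3 of these 15 had a mean signal of at least 100, and signals of the dim 12 reached into the TrpnX range of 1.55 to 24 in several genes. Cldn10, which forms ion-conducting pores, read 121 and 201 in MC903 skin and 414 and 343 in vehicle skin (-1.19 ± 0.28, adjusted p = 0.23). The 4-spanning claudin relative Cldnd1 read 1797 and 1791 in MC903 skin and 1467 and 1350 in vehicle skin (0.35 ± 0.15, adjusted p = 0.386). Cldn10 was lower and Cldnd1 higher in both MC903 arrays.

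Of 15 other membrane proteins of the junction, 7 were lower and 2 higher without overlap, and their median difference was -0.25, with a range of -0.82 to 0.52. Marveld2, or tricellulin, which seals the corners where 3 cells meet, read 418 and 600 in MC903 skin and 807 and 1004 in vehicle skin (-0.82 ± 0.25, adjusted p = 0.277). Its relative Marveld3 read 263 and 338 in MC903 skin and 527 and 420 in vehicle skin (-0.63 ± 0.22, adjusted p = 0.31). Together with Ocln these are the MARVEL proteins of the tight junction, and each was lower in both MC903 arrays without passing the test. Tmem47, at -0.60 ± 0.16, and Jam3, an adhesion molecule of the immunoglobulin superfamily, at -0.53 ± 0.24, were also lower in both.

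Of 28 scaffold and polarity genes measured among 31 listed, 13 were lower and 3 higher without overlap, with a median of -0.18 and a range of -1.18 to 0.38. Cgn, the cytoplasmic plaque protein cingulin, read 527 and 922 in MC903 skin and 1214 and 948 in vehicle skin (-0.61 ± 0.33, adjusted p = 0.457). Its relative Cgnl1 read 228 and 198 in MC903 skin and 408 and 329 in vehicle skin (-0.75 ± 0.19, adjusted p = 0.243). The scaffold Magi1 differed by -0.69 ± 0.15 (adjusted p = 0.216). Amot, angiomotin, which links polarity proteins to the Hippo pathway, differed by -1.18 ± 0.34 (adjusted p = 0.265). These 4 were chosen for large differences without overlap, and 12 of the 28 had overlapping groups. In these 3 lists, shares lower without overlap stand beside 28.2% over all genes, and no test of the lists was made.

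**Figure D4:**
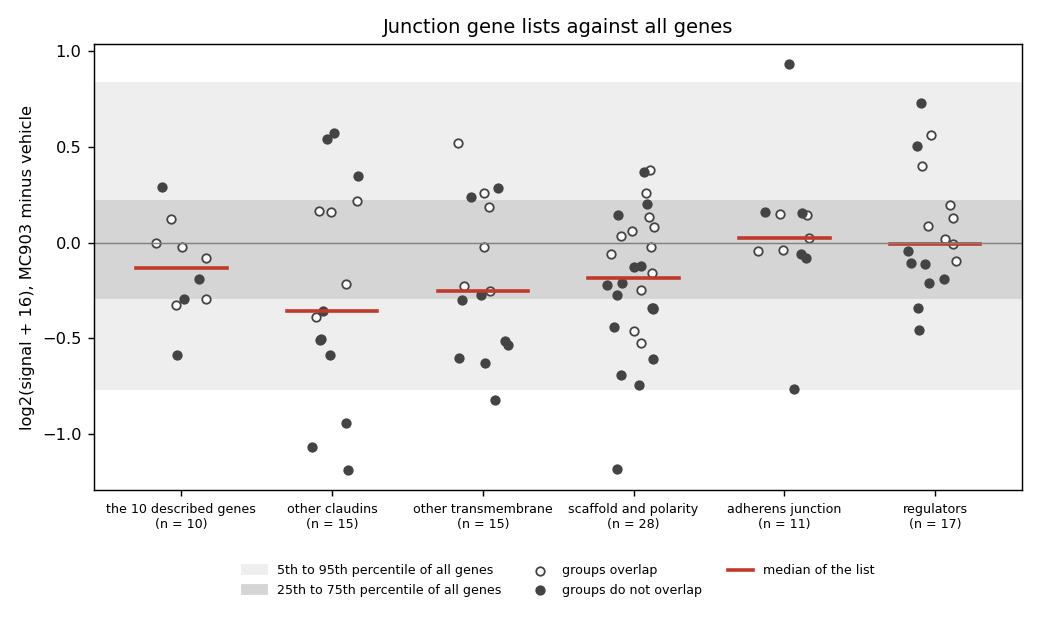
Difference in log2(signal + 16), MC903 minus vehicle, of every measured gene of 6 junction lists, filled where the groups do not overlap, with list medians (red bars) and the central ranges of all genes (grey bands). List medians run from -0.36 for the other claudins to 0.02 for the adherens junction genes, and most points lie within the 5th to 95th percentile of all genes (-0.77 to 0.84).

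Adherens junctions, the cadherin contacts under the tight junction, had a median of 0.02 over 11 genes and a range of -0.76 to 0.93, with 3 lower and 3 higher without overlap. The nectins, which help to start cell contacts, differed in direction. Nectin1 read 204 and 205 in MC903 skin and 104 and 95.3 in vehicle skin (0.93 ± 0.15, adjusted p = 0.178). Nectin3 read 422 and 433 in MC903 skin and 769 and 708 in vehicle skin (-0.76 ± 0.16, adjusted p = 0.2). The actin linkers Ctnna1 and Vcl were higher in both MC903 arrays by small amounts. Ctnna1 read 10028 and 8816 in MC903 skin and 8056 and 8803 in vehicle skin, so its groups almost touched (0.16 ± 0.17, limma, adjusted p = 0.69). Vcl read 2940 and 2824 in MC903 skin and 2511 and 2660 in vehicle skin (0.16 ± 0.15, limma, adjusted p = 0.665). Of 17 regulators of tight junctions measured among 18 listed, not all of them epidermal, 7 were lower and 2 higher without overlap. Their median was -0.01, with a range of -0.46 to 0.73. One of the 7, Cdx1, read 1.45 and 1.44 in MC903 skin and 1.87 and 2.08 in vehicle skin, all near the lowest TrpnX signal of 1.55. Over all genes, 28.2% were lower and 21.6% higher without overlap. Grhl3, a Grainyhead factor of epidermal barrier formation, read 1673 and 2557 in MC903 skin and 1217 and 1261 in vehicle skin (0.73 ± 0.26, adjusted p = 0.312). Prss8, a membrane protease that mouse epidermis needs for its tight junctions, read 1245 and 1472 in MC903 skin and 1069 and 843 in vehicle skin (0.50 ± 0.21, adjusted p = 0.357). Ovol2 and Mylk were lower in both MC903 arrays, by -0.46 and -0.34.

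Several cell type markers differed between the groups beside these genes, and their part in the differences above was not tested. For the counts without overlap that follow, the shares over all genes were 28.2% lower and 21.6% higher. All 24 hair follicle markers measured among 26 listed had differences below 0, 23 without overlap, with a median of -3.05. Their summed signals were 15803 and 14603 in MC903 skin and 58338 and 95714 in vehicle skin. With the prior that depends on signal strength, 14 of the 24 passed the test in limma, all lower in MC903 skin, as did Krt1 and Casp14 of the keratinocyte markers, higher, and Pmel of the melanocyte markers, lower. Of all genes, 0.923% passed with that prior. Melanocyte markers had a median of -0.83, with 9 of 10 lower without overlap. Of 12 markers of simple and glandular epithelium, 6 were lower and 2 higher without overlap (median -0.34), and their sums were 13022 and 14623 in MC903 skin and 13929 and 12810 in vehicle skin. Epcam and Slc12a2, with mean signals of 7637 and 3800, made up most of these sums. The 12 markers differed in direction, with Krt8, Krt7 (-0.72) and Slc12a2 (-0.59) lower in both MC903 arrays. The epithelial transcription factor Ehf (0.91) and Epcam (0.29) were higher in both. Of 16 epidermal keratinocyte markers, 9 were higher and 2 lower without overlap (median 0.24). Leukocyte markers had a median of 0.68 and adipocyte markers of 0.67, with 14 of 22 measured and 6 of 8 measured higher without overlap. The leukocyte count includes Epcam, which is also among the epithelial markers above. Kit is in both the leukocyte and the melanocyte list. Fibroblast and sebaceous gland markers had medians of -0.20 and -0.03. Skeletal muscle markers were low in 1 MC903 array, with sums of 16985 and 63099 in MC903 skin and 84998 and 52659 in vehicle skin. No marker of these lists was listed at 0.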

How the data were processed

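Biotin-labelled RNA of treated mouse skin was hybridised to arrays that read the 3′ ends of transcripts, per the labels' protocols. The authors deposited linear intensity for 45101 probe sets per array. The software behind the intensity values was not given in the sources used here. Every array had the same trimmed mean of 500 (2% trimmed at each end) but its own quantiles, so the deposited intensity had been scaled without quantile normalization. Detection calls were not part of the table used.

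Gene names came from the annotation of the platform, with symbols updated by Entrez ID to RefSeq of GRCm38.p6. Control probe sets (64) were left out, 34945 had 1 symbol (34741 matched by ID), 932 had several and 9160 were unnamed. Each gene took the probe set with the highest mean log2(signal + 16), giving 18193 genes, with no filter on dim ones. The 10 genes have 18 probe sets. MC903 and vehicle arrays were set against each other by limma (version 3.58.1, R 4.3.3), using lmFit and then eBayes with 1 prior variance for all genes. Degrees of freedom were 2 residual and 2.32 prior, p-values were adjusted by Benjamini-Hochberg over all 18193 genes, and the threshold was 0.05. The smallest two-sided p that an exact permutation test can give for so few arrays is 0.333. The script was tested on simulated data.

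The members and lists were chosen with earlier results of these data known. All members and their probe sets are named. From other lists at most 4 genes are named by rule, those with the largest differences among genes with a mean signal of at least 100 whose groups do not overlap. Cldn2, Krt5, Krt10, Cdx1, Epcam, Kdr, Erg and Flt4 were named outside that rule, after their values were seen. Alternatives were quantile normalization, median centring, added constants of 1 and 64, leaving out the dimmest 25% or 50% of genes, averaging or singly testing probe sets, a prior that follows the signal, a robust prior, the replicate number as block, and omission of each array in turn. Choosing probe sets by mean linear signal is an alternative chosen after seeing the data. The number of arrays limits the precision.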

Additional observations from a re-analysis of the deposited data

How the results depend on the processing

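None of the 10 genes passed the threshold in limma under any of the settings tried, the lowest adjusted p being 0.0933, for Cldn8 without the dimmest 50% of genes. Of 138 values of single members under the alternatives, 126 kept their direction and 12 did not. Many of the 126 could not have turned. The other priors, the replicate block and the omission of dim genes leave each difference as it was. Averaging over probe sets does the same for the 6 members with 1 probe set. Cldn4, Cldn5, Cldn8, Cldn12 and Ocln kept theirs throughout. For Cldn4, Cldn8, Cldn12 and Ocln, whose groups did not overlap, leaving out 1 array could not have turned the direction. Cldn1 (-0.02) became 0.056 with median centring and 0.47 as a mean over probe sets, and Tjp1 (0.00 in size) became 0.080 with median centring. With 1 array left out, differences ran from -0.18 to 0.13 for Cldn1, from -0.43 to 0.27 for Cldn3, from -0.47 to 0.72 for Cldn7, from -0.71 to 0.057 for Cldn23 and from -0.11 to 0.11 for Tjp1. The cause of these turns was not tested.

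The count of genes called over the whole array, 0 as reported, was 3 with median centring, 70 with an added constant of 64, 42 and 177 without the dimmest 25% and 50% of genes, 12 with means over probe sets, 168 with a prior that follows the signal and 5 with probe sets chosen by linear signal. It was 0 with each array left out. The members' median of -0.14 was -0.24 without the dimmest 50% of genes, where Cldn3 and Cldn7 drop out. As means over probe sets it was -0.27. There, 2 members were higher without overlap instead of 1, and 4 were lower instead of 3. The share of all genes without overlap was not computed for that setting. With 1 array left out the median ran from -0.21 to -0.044, the members higher without overlap from 1 to 4 (32.3% to 35.8% of all genes) and those lower from 4 to 7 (38.9% to 44.2% of all genes). With the replicate number as a block 0 genes were called, and the lowest adjusted p of a member was 0.376. The labels do not say that the numbers pair the samples, and same-numbered arrays deviated from their group means with a correlation of -0.06. Signals near those of TrpnX limit the dim genes.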
